A study of Homo sapiens with 12 samples.

Results

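Chemokines are small secreted proteins that steer leukocytes along a gradient, and the spacing of their first cysteines gives them their family names. The CXC members CXCL1, CXCL2, CXCL3, CXCL5, CXCL6 and CXCL8 (interleukin-8) draw mainly neutrophils through the receptors CXCR1 and CXCR2. CCL2 draws monocytes, CCL20 draws cells that carry CCR6, and CCL28 draws cells that carry CCR10 or CCR3. CX3CL1 (fractalkine) is made as a membrane-bound ligand that proteases can release. Epithelial and tumour cells are known to make several of them when NF-kB and AP-1 are active, as after exposure to interleukin-1, and many of the mRNAs carry AU-rich elements linked to rapid decay. CXCL8 and its relatives are also known parts of the senescence-associated secretory phenotype.

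The transcripts of these 10 chemokine genes, chosen by symbol, were read in all 12 libraries of a count table with 58735 gene identifiers. ES2 is an established human ovarian cancer line. In the FDX2-iKO cells its endogenous FDX2 gene, which encodes a mitochondrial ferredoxin of iron-sulfur cluster synthesis, was knocked out. An HA-tagged, editing-resistant FDX2 was driven by a TetON promoter for as long as doxycycline (Doxy) was present, and all 4 conditions carry the knockout and the transgene. The conditions were 20% O2 + Doxy and 20% O2 wo Doxy, cultured for 6 days, and 3% O2 + Doxy and 3% O2 wo Doxy, cultured for 4 days at 20% O2 and then for 3 days at 3% O2, with 3 biological replicates each according to the labels. The cells were of clonal origin, and by the study's methods its results come from a single clone (clone 1) unless it states otherwise. Oxygen and length of culture cannot be told apart where 3% and 20% O2 are compared, and the same holds for Doxy and FDX2 where cells with and without Doxy are compared.

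Library totals lay between 24958386 and 34313637 counts (median 29621780). FDX2 had 2 to 13 counts per library, too few to check the knockout from the RNA, and 70.9% of its annotated exon bases overlap another gene. Of 9 epithelial markers, KRT7, KRT8, KRT18 and PAX8 were tested and the defining markers EPCAM and CDH1 had at most 3 counts in any library. The 8 leukocyte markers summed to 0.0639 to 0.805 CPM (counts scaled to a common library total) per library, with MS4A1 and FCGR3B at 0 throughout. Among 4 endothelial markers CDH5 alone passed the filter (656 to 1412 counts). In these bulk RNA samples, fewer cells of a type and less RNA per cell cannot be told apart. Replicate 1 of 3% O2 wo Doxy stood apart for CXCR5, with 254 counts against 6 to 51 in the other 11 libraries. Of the exon bases of CXCR5, 88.6% overlap another gene on the opposite strand, so its counts are uncertain. The libraries also differed in how CPM followed the GC content of transcripts, with slopes between -1.50 and 1.90 log2 CPM per unit of GC fraction. Without Doxy the slopes did not overlap between the oxygen levels, at -1.50 to -0.867 in 20% O2 and 0.286 to 1.82 in 3% O2. With Doxy they overlapped, at -1.27 to 1.69 in 20% O2 and -0.633 to 1.90 in 3% O2. Fits with a correction for GC content are given below.

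The 6 CXC members lie within 359 kb of chromosome 4 (73740506 to 74099293, GRCh38), while CCL20, CCL28, CCL2 and CX3CL1 lie on chromosomes 2, 5, 17 and 16. RefSeq promoters (GRCh38.p14) were at hand for 8 members, and those of the neighbours that were tested are shown because they share a motif. The part of this motif in the levels or responses of the transcripts was not tested. The last 150 bases before the start of transcription are given 5′ to 3′ on the gene's own strand, with the letters of matches to the kappaB motif GGNNTTTCC or the AP-1 motif TGANTCA in capitals. They cover chr4:73740419-73740568 (plus strand) for CXCL8, chr4:73869243-73869392 (plus strand) for CXCL1, chr4:74099196-74099345 (minus strand) for CXCL2, chr4:74038690-74038839 (minus strand) for CXCL3 and chr4:73998678-73998827 (minus strand) for CXCL5. The window of CXCL1 ends just before the GENCODE start of its gene, and the other 4 reach past that start.
CXCL8: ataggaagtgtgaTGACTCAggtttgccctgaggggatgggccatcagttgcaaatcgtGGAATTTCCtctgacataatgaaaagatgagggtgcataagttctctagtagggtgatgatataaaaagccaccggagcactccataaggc
CXCL1: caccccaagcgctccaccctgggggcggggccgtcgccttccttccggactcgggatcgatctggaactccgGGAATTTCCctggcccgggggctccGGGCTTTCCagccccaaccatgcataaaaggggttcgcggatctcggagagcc
CXCL2: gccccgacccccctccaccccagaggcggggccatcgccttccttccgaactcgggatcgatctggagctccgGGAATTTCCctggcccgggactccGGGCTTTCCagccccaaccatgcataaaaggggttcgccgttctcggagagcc
CXCL3: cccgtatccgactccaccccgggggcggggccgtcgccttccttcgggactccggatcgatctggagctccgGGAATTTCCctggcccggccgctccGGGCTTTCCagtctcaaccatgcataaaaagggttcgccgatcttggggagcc
CXCL5: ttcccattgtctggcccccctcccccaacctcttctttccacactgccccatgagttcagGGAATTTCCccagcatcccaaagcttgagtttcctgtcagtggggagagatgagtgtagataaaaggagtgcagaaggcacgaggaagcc

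In the 250 bases before the start, searched on both strands and counted back from it, the same kappaB match GGAATTTCC stood in all 6 CXC promoters, at -91 to -83 in CXCL8, -78 to -70 in CXCL1 and CXCL3, -77 to -69 in CXCL2, -90 to -82 in CXCL5 and -89 to -81 in CXCL6. CXCL1, CXCL2 and CXCL3 held a further match, GGGCTTTCC, at -53 to -45. CCL20 held the match GGAAAACCC, on the opposite strand, at -79 to -71, and neither annotated start of CCL28 had any. Of 35116 RefSeq promoters, 5.48% held a kappaB match. The AP-1 match TGACTCA, at -137 to -131, was found in CXCL8 alone among these promoters, against 6.57% of all. The amino acid response motif TGATGNAA matched in 0 members (3.14% of all promoters), and the hypoxia response core (ACGTG or GCGTG) matched in 3, CXCL5, CCL20 and CCL28, against 43.21% of all. These matches are letters in a window and not measured binding sites. The windows of CXCL1 and CXCL3 were identical at 86.0% of positions without gaps and those of CXCL5 and CXCL6 at 90.6%, whereas CXCL8 shared 27.3% to 32.2% with the others.

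The mRNAs were also rich in the pentamer ATTTA, the core of AU-rich elements. CXCL8 held 10 copies (5.87 per kb of its longest protein-coding transcript), CXCL2 10 (8.21 per kb) and CXCL3 7 (6.51 per kb), against a median of 0.937 per kb over 19684 protein-coding genes. In 7 of the 10 members, all but CCL2, CCL28 and CX3CL1, fewer than 5% of genes were as dense. Compared among the 10 members, CXCL1, CXCL2 and CXCL3 were the genes that shared sequence, and their transcripts had 5.7%, 9.2% and 5.3% of their 50-base windows in common with another member, and no member shared a window of 100 bases.

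CXCL5 dominated the chemokine RNA of these cells. Per length, in TPM (counts divided by exon length and scaled to a common total), it stood at 2547 ± 206 (SD, n = 3) in 20% O2 + Doxy, rank 34 of the 16891 tested genes, and made up 86.2% ± 0.481 of the summed TPM of the 10 members. CXCL8 followed at 208 ± 23.6 TPM and CXCL1 at 136 ± 5.79 TPM. CXCL3 stood at 45.4 ± 0.402 TPM, CXCL2 at 10.9 ± 0.878, CCL20 at 4.58 ± 0.824 and CCL28 at 2.98 ± 0.481. The order was the same by mean TPM in every condition, and neighbours in it did not overlap in 20% O2 + Doxy. In 3% O2 wo Doxy, CXCL8 (156 to 184 TPM) overlapped CXCL1 (128 to 164 TPM), and CCL20 overlapped CCL28 at both 3% O2 conditions.

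**Figure D1:**
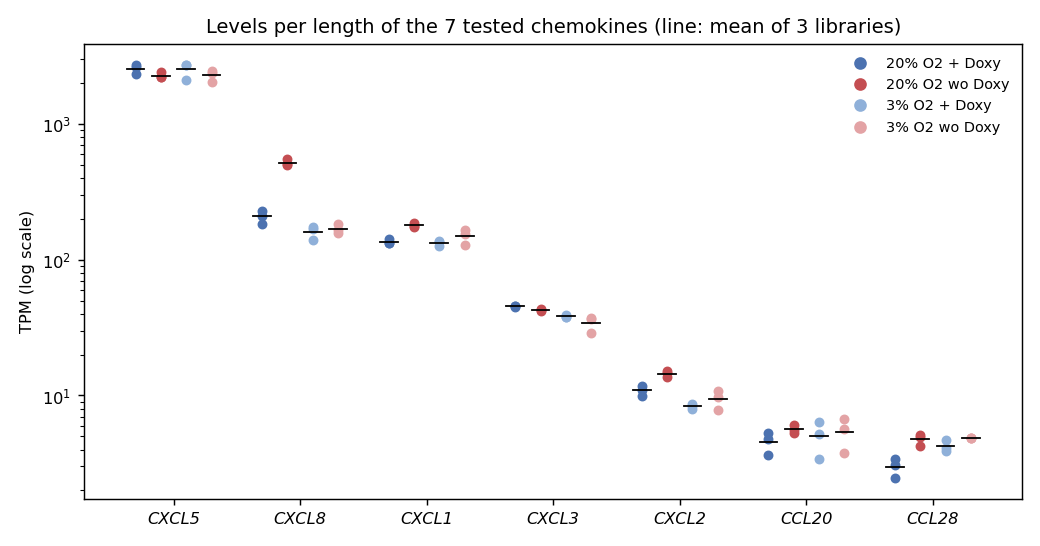
TPM (log axis) of the 7 tested chemokines, ordered by level, with a point per library and a line at the mean of 3 libraries in each of the 4 conditions. CXCL5 lies between 2046 and 2724 TPM in all libraries, and the CXCL8 points of 20% O2 wo Doxy (501 to 546 TPM) stand clear of those of its other 3 conditions.

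CXCL6, CCL2 and CX3CL1 were too low to read. CCL2 and CX3CL1 had 0 counts in all 12 libraries, which allows up to 3 counts, or 0.0882 to 0.121 CPM depending on the library. CXCL6 had at most 1 count, in 20% O2 wo Doxy replicates 2 and 3 and in the 3 replicates of 3% O2 wo Doxy, which is under the same limit. No fold change is given for these 3 genes. The other 36 human chemokine ligands were close to silent, since 28 had 0 counts everywhere, 2 had more than 3 counts in some library, and none was tested, with summed levels of 0.0639 to 0.684 CPM. These limits cover counting error only.

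On FDX2 loss at 20% O2, CXCL8, CXCL1 and CCL28 rose. Of the 7 tested members 3 were higher and 1 lower in 20% O2 wo Doxy than in 20% O2 + Doxy at an adjusted p under 0.05 (edgeR quasi-likelihood test, Benjamini-Hochberg over all genes). In the same test 17.6% of all 16891 genes were higher and 17.7% lower. The members' median log2 fold change was 0.32, against 0.01 over all genes tested. Without replicate 1 of 3% O2 wo Doxy, which stood apart for CXCR5, 6 members passed, 4 higher and 2 lower. That library is in neither of the conditions compared, and the share of all genes called in that fit is not given. In 9 of the 12 fits that left out 1 library the CXCL5 call was lost. The summed epithelial markers read 1049 to 1419 CPM with Doxy and 847 to 903 CPM without, with 2 of 4 tested (KRT7 and KRT18) lower. KRT7 lost its call with the correction for GC content (-0.13, edgeR adjusted p = 0.0883). The endothelial markers summed to 22.3 to 28.6 CPM with Doxy and 26.3 to 27.1 CPM without. The part of these markers in the results was not tested.

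CXCL8 read 114, 128 and 141 CPM in the replicates of 20% O2 + Doxy. In 20% O2 wo Doxy it read 291, 294 and 314 CPM. All values without Doxy lay above all values with Doxy, a 2.35-fold rise with a 95% confidence interval of 2.03 to 2.71 (log2 fold change 1.23, standard error 0.0945, edgeR adjusted p = 3.77e-06). The rise ranked 677 of 16891 genes from the highest fold change down. It kept its call in all 19 alternatives that keep the threshold without a minimum fold, with log2 fold changes of 1.14 to 1.31 when libraries were left out in turn. As a share of the CXCL5 TPM, CXCL8 lay between 7.90% and 8.48% with Doxy and between 22.8% and 22.9% without.

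CXCL1, a growth-regulated ligand of CXCR2, rose by less, with 47.5 ± 2.49 CPM with Doxy and 59.3 ± 1.93 CPM without (SD, n = 3). Its replicates read 50.3, 45.8 and 46.3 CPM with Doxy and 57.4, 59.2 and 61.3 CPM without, so the conditions did not overlap. The log2 fold change was 0.32 (standard error 0.0704, edgeR adjusted p = 0.00472). CCL28, a mucosal chemokine, rose from 3.64 ± 0.571 to 5.52 ± 0.456 CPM (SD, n = 3). Its replicates read 3.04, 3.70 and 4.17 CPM with Doxy and 5.74, 4.99 and 5.82 CPM without, again apart (log2 fold change 0.60, standard error 0.132, edgeR adjusted p = 0.00473). Both calls held in the same 19 alternatives and were lost with a minimum fold of 2.

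The other CXC genes lay close to the threshold. CXCL5, an epithelial neutrophil attractant, read 1604, 1771 and 1861 CPM with Doxy and 1424, 1440 and 1529 CPM without, with a log2 fold change of -0.25 (standard error 0.0908, edgeR adjusted p = 0.0499). That call was lost in 12 of 19 alternatives, and among the fits that left out 1 library it held only without replicate 1 of 20% O2 + Doxy, replicate 3 of 3% O2 + Doxy or replicate 1 of 3% O2 wo Doxy (log2 fold changes -0.32 to -0.21 over the 12 such fits, adjusted p 0.00755 to 0.159). CXCL2 missed the threshold at 0.32 on the log2 scale (standard error 0.117, edgeR adjusted p = 0.0515), as did CXCL3 at -0.18 (standard error 0.0669, edgeR adjusted p = 0.0601). CXCL2 passed without replicate 1 of 20% O2 + Doxy (0.38, edgeR adjusted p = 0.0491) or replicate 1 of 3% O2 wo Doxy (0.32, edgeR adjusted p = 0.0276), and CXCL3 without the latter (-0.18, edgeR adjusted p = 0.0186). Over all 19 alternatives CXCL2 passed in 5 and CXCL3 in 4. DESeq2's Wald test called 5 members, with CXCL3 but not CXCL2 among them, and the share of all genes it called in this comparison is not given. CCL20, the ligand of CCR6, read 1.97 ± 0.333 and 2.30 ± 0.180 CPM, and with 40 to 83 counts per library its interval ran from -0.35 to 0.80 on the log2 scale.

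**Figure D2:**
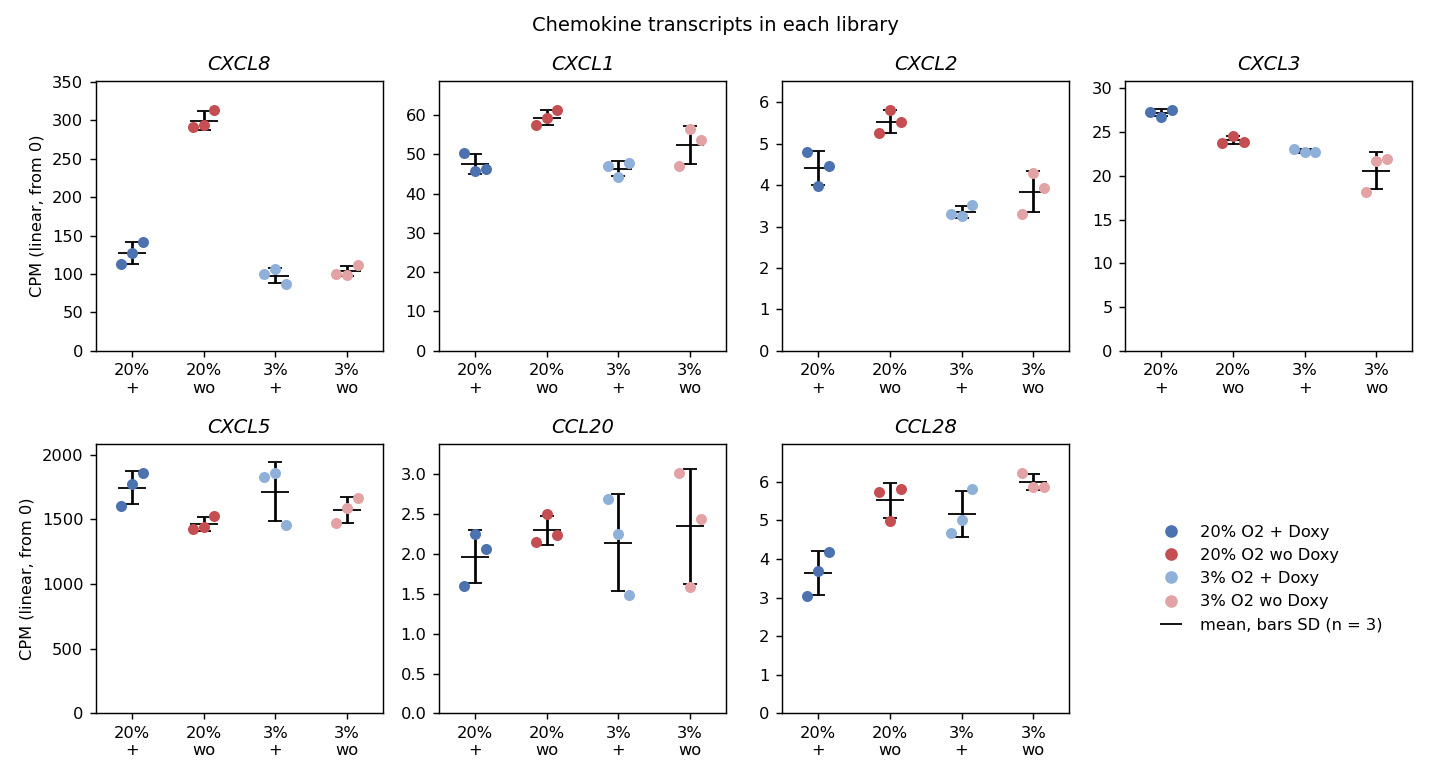
CPM of each tested chemokine in each library on linear axes from 0, by condition, with the mean and SD of 3 replicates. CXCL8 replicates of 20% O2 wo Doxy lie at 291 to 314 CPM and those of the other conditions at 86.7 to 141 CPM.

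At 3% O2 no chemokine passed the test for FDX2 loss. None of the 7 tested members passed edgeR's test between 3% O2 wo Doxy and 3% O2 + Doxy (0 higher and 0 lower), and 1, CXCL1, had an unadjusted p under 0.05. Of all genes 4.2% were higher and 3.11% lower. DESeq2's Wald test and the correction for GC content also called 0 members. The members' median log2 fold change was 0.13, against 0.04 over all genes tested.

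CXCL8 read 101, 107 and 86.7 CPM in 3% O2 + Doxy. In 3% O2 wo Doxy it read 100, 99.2 and 112 CPM. The conditions overlapped, and the log2 fold change of 0.09 had a 95% confidence interval of -0.12 to 0.29 (standard error 0.0940, edgeR adjusted p = 0.627). The log2 fold change was 0.18 for CXCL1 (standard error 0.0707, edgeR adjusted p = 0.166), 0.19 for CXCL2, 0.21 for CCL28, -0.15 for CXCL3, -0.12 for CXCL5 and 0.13 for CCL20. The replicates of CXCL3 and CCL28 did not overlap between the conditions, and the replicates of the other 5 did. Neither CXCL3 (edgeR adjusted p = 0.218) nor CCL28 (edgeR adjusted p = 0.353) passed, and how often replicates lay apart over all genes was not tested.

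The response of CXCL8 differed between the oxygen levels. The interaction term, the log2 response to FDX2 loss at 3% O2 minus that at 20% O2, was -1.15 for CXCL8 (standard error 0.133, 95% confidence interval -1.44 to -0.85, edgeR adjusted p = 0.000927). It was called in all 18 alternatives, between -1.22 and -1.07 when libraries were left out in turn. CXCL8 was the 1 member of 7 that passed, with 0 higher, where 3.21% of all genes were higher and 4.08% lower. The medians were -0.13 for the members and 0.05 for all genes. For CCL28 the term was -0.39 with an interval of -0.79 to 0.02, for CXCL1 -0.15 (-0.37 to 0.07) and for CXCL2 -0.13 (-0.50 to 0.24), so a difference was not shown for them. With the correction for GC content CXCL5 also passed, at 0.21 (edgeR adjusted p = 0.0482).

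**Figure D3:**
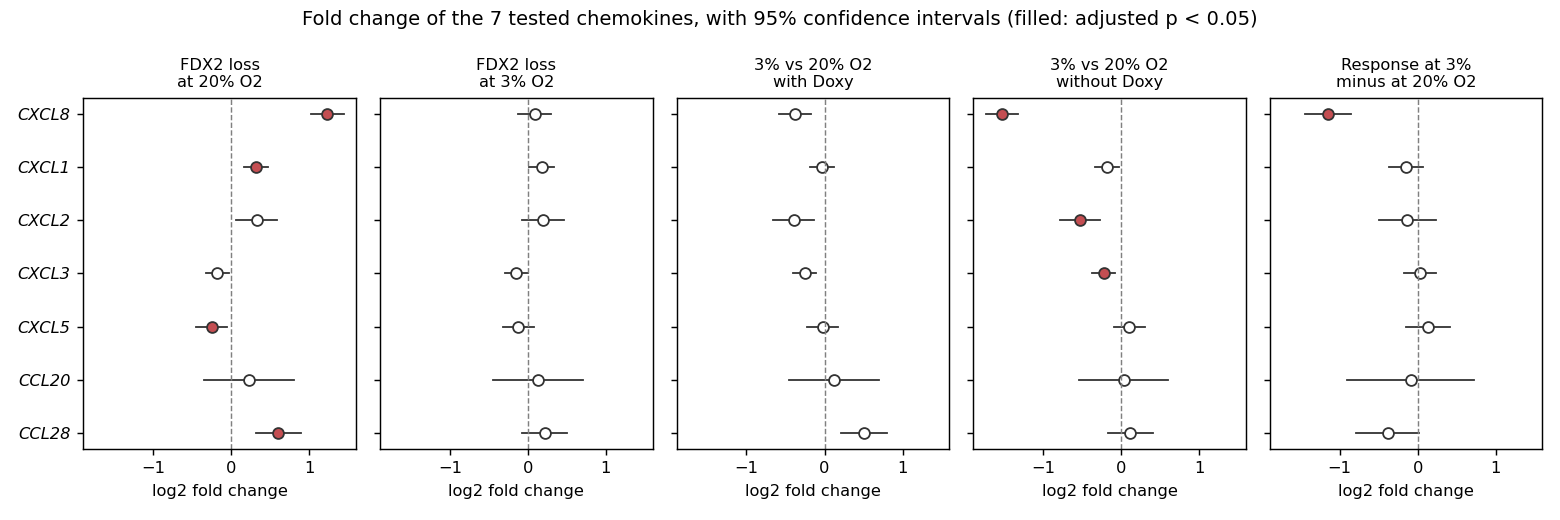
Log2 fold changes of the 7 tested chemokines with 95% confidence intervals in the 4 comparisons and in the difference of the responses, filled where edgeR's adjusted p is under 0.05. CXCL8 is at 1.23 for FDX2 loss at 20% O2, at 0.09 at 3% O2 and at -1.15 for the difference, while the other members lie between -0.53 and 0.60 throughout.

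Oxygen was compared within each Doxy state, using the same libraries as above, so the comparisons share samples. With Doxy, 0 of 7 members were called between 3% and 20% O2 (0 higher and 0 lower), where 1.63% of all genes were higher and 0.385% lower. At an unadjusted p under 0.05 there were 4, CXCL8, CXCL2, CXCL3 and CCL28. CXCL8 read 98.0 ± 10.2 CPM at 3% O2 (SD, n = 3), with every replicate below those of 20% O2, and a log2 fold change of -0.38 (standard error 0.0939, edgeR adjusted p = 0.0713). CXCL2 gave -0.40, CXCL3 -0.25 and CCL28 0.50, with edgeR adjusted p-values of 0.142, 0.0922 and 0.0881. DESeq2's Wald test called 2 members, CXCL8 and CXCL3, both lower, and the correction for GC content called these and CCL28, which was higher. CXCL8 also passed without replicate 1 of 20% O2 + Doxy (-0.47, edgeR adjusted p = 0.0322) and CXCL3 without replicate 1 of 3% O2 wo Doxy (-0.25, edgeR adjusted p = 0.0289). The medians were -0.03 for the members and -0.0045 for all genes.

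Without Doxy, CXCL8, CXCL2 and CXCL3 were lower at 3% than at 20% O2. These were 3 of 7 members, with 0 higher, where 11.9% of all genes were lower and 13.9% higher. The median was -0.18 for the members and 0.07 for all genes. CXCL8 read 299.7 ± 12.2 CPM at 20% O2 and 104 ± 7.11 CPM at 3% O2 (SD, n = 3), a log2 difference of -1.53 (standard error 0.0954, 95% confidence interval -1.74 to -1.32, edgeR adjusted p = 4.67e-06), and ranked 16809 of 16891 from the highest fold change. The call held in all 21 alternatives. At 3% O2 the endothelial markers summed to 40.3 to 51.9 CPM and the epithelial markers to 1085 to 1213 CPM, above the 20% O2 wo Doxy ranges given above, and their part in the results was not tested.

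CXCL2, a close relative of CXCL1, read 5.26, 5.82 and 5.53 CPM at 20% O2 and 3.30, 4.29 and 3.93 CPM at 3% O2, with no overlap (log2 fold change -0.53, standard error 0.119, edgeR adjusted p = 0.00886). CXCL3, another ligand of CXCR2, read 23.7, 24.6 and 23.9 CPM at 20% O2 and 18.2, 21.7 and 21.9 CPM at 3% O2 (log2 fold change -0.22, standard error 0.0676, edgeR adjusted p = 0.0328). The CXCL3 call was lost without replicate 1 of 3% O2 wo Doxy (-0.14, edgeR adjusted p = 0.0949), without replicate 2 of 20% O2 + Doxy or without any replicate of 20% O2 wo Doxy (-0.25 to -0.22). Same-numbered libraries correlated positively in this comparison, though pairing by number was not established. With the replicate block CXCL3 had an edgeR adjusted p of 0.0572 in the fit to 12 libraries and 0.0471 in the fit to the 6 compared. CXCL1 stood at -0.18 (edgeR adjusted p = 0.0841) and passed without replicate 1 of 20% O2 + Doxy (-0.19, edgeR adjusted p = 0.0410). DESeq2's Wald test called 4 members here, CXCL8, CXCL1, CXCL2 and CXCL3, and the share of all genes it called here is not given. CXCL5 stood at 0.10 (edgeR adjusted p = 0.421), and at 0.25 with the correction for GC content (edgeR adjusted p = 0.00184). CCL28 (0.12) and CCL20 (0.03) did not pass.

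Summed over the members, TPM was 2955 ± 225 in 20% O2 + Doxy, 3025 ± 142 in 20% O2 wo Doxy, 2859 ± 371 in 3% O2 + Doxy and 2655 ± 245 in 3% O2 wo Doxy (SD, n = 3), and the ranges overlapped except for those of 20% O2 wo Doxy and 3% O2 wo Doxy. The share of CXCL8 in it was 7.02% ± 0.286, 17.1% ± 0.0599, 5.61% ± 0.172 and 6.34% ± 0.295 in the same order.

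Receptors for these ligands were nearly absent from the RNA of the cells. CXCR1 and CXCR2 had at most 1 count in any library, and CCR6, CCR2 and CX3CR1 had 0 throughout. Of 23 receptors 4 were tested, CCR1, CCR10, CXCR5 and CCRL2. CCR10, a receptor of CCL28, had 10 to 33 counts and passed no comparison, and 31.3% of its exon bases overlap other genes on the opposite strand. CCRL2, an atypical receptor that binds chemerin without signalling, rose on FDX2 loss at 20% O2 from 4, 0 and 7 counts to 21, 16 and 20 (log2 fold change 2.36, standard error 0.644, edgeR adjusted p = 0.0153). CCR1 (0.60) and CXCR5 (0.70) did not pass there, and 0 of 4 receptors passed edgeR's test at 3% O2, where CCR1 and CCR10 had an unadjusted p under 0.05 and DESeq2's Wald test called 0.

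Cytokines, receptors and adaptors known to induce these chemokines changed in either direction at 20% O2. Of 15 tested genes in a list of 20, 5 were higher and 2 lower on FDX2 loss at 20% O2. Over all genes 17.6% were higher and 17.7% lower there. At 3% O2, 1 of the 15 was higher and 0 lower, against 4.2% and 3.11% of all genes. Of the 15, 6 had an unadjusted p under 0.05 at 3% O2 and DESeq2's Wald test called 2 (IL1B and OSMR). IL6, named here after its values were seen, passed at neither oxygen level. It gave 1.09 at 20% O2 (edgeR adjusted p = 0.0586) and 1.18 at 3% O2 (edgeR adjusted p = 0.148), with an interaction term of 0.09 (edgeR adjusted p = 0.944). The median log2 fold change of the 15 was 0.11 at 20% O2, against 0.01 over all genes tested. The interleukin-1 gene IL1A read 0.671, 0.761 and 0.764 CPM with Doxy and 4.78, 5.41 and 4.42 CPM without at 20% O2 (log2 fold change 2.73, standard error 0.167, edgeR adjusted p = 9.25e-07). IL1B, which encodes the other interleukin-1, rose by 1.72 on the log2 scale there (edgeR adjusted p = 6.32e-08) and by 0.67 at 3% O2 (edgeR adjusted p = 0.000388), where IL1A gave 0.43 (edgeR adjusted p = 0.196). The interaction term was -2.30 for IL1A and -1.05 for IL1B, both called (edgeR adjusted p = 0.000512 and 0.000241).

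Their receptor IL1R1 was also higher at 20% O2 (log2 fold change 0.90), as was IL6ST, the shared receptor subunit of the interleukin-6 family (0.50). IL17RA, a receptor for interleukin-17 (-0.73), and the adaptor TRAF2 (-0.61) were lower. TNF had at most 1 count in any library and was not tested. Without Doxy, IL1A (-2.02), IL1R1 (-1.21), IL1B (-1.03) and IL6ST (-0.35) were lower at 3% than at 20% O2, and TNFRSF1A and TRAF2 (both 0.45) were higher, 4 lower and 2 higher of 15. The shares over all genes were 11.9% lower and 13.9% higher. IL6ST was lost without replicate 3 of 20% O2 wo Doxy (-0.30) or replicate 2 of 3% O2 wo Doxy (-0.34), and TNFRSF1A without the latter (0.38). TRAF2 was lost with the replicate block (edgeR adjusted p = 0.0734). The blocked fit to 6 libraries with the correction for GC content also lost it (0.13, edgeR adjusted p = 0.0905). So did the fits without replicate 2 of 20% O2 + Doxy, any replicate of 20% O2 wo Doxy, or replicate 2 or 3 of 3% O2 wo Doxy (0.34 to 0.49). With Doxy, 1 of 15 was higher at 3% O2, the receptor for oncostatin M, OSMR (0.28, edgeR adjusted p = 0.0126), which was lost without replicate 2 of either condition (0.27 to 0.28). In that comparison 1.63% of all genes were higher. OSMR was also the fifth gene that was higher on FDX2 loss at 20% O2 (0.22), a call lost without replicate 3 of 20% O2 wo Doxy (0.19). Its interaction term was called (-0.33, edgeR adjusted p = 0.0177) but was lost in 6 of 18 alternatives, among them the fits without any replicate of 20% O2 wo Doxy, replicate 2 of 3% O2 + Doxy or replicate 2 of 3% O2 wo Doxy (-0.35 to -0.31, edgeR adjusted p at most 0.0925 over the 6).

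Among 26 regulators of NF-kB, AP-1 and stress transcription, all tested, 10 were higher and 2 lower on FDX2 loss at 20% O2. Over all genes 17.6% were higher and 17.7% lower there. At 3% O2, 4 regulators were higher and 0 lower, against 4.2% and 3.11% of all genes. The medians of the regulators were 0.30 at 20% O2 and 0.25 at 3% O2, against 0.01 and 0.04 over all genes tested. With 1 library left out, 5 to 12 were higher and 1 to 2 lower at 20% O2, and 2 to 5 were higher and 0 lower at 3% O2. At 20% O2 the number higher was 5 without replicate 2 of 20% O2 + Doxy or replicate 2 or 3 of 20% O2 wo Doxy, and 6 without replicate 3 of 20% O2 + Doxy or replicate 1 of 20% O2 wo Doxy. At 3% O2 it was 2 without replicate 1 or 2 of 3% O2 + Doxy or replicate 2 of 3% O2 wo Doxy. The largest rises at 20% O2 were those of DDIT3, a stress-induced factor also called CHOP (2.49), ATF3, a stress-induced factor of the ATF/CREB family (2.29), FOSB, an AP-1 subunit (1.51), and TNFAIP3, the feedback inhibitor A20 of NF-kB (1.45). The 2 lower were the AP-1 subunit JUN (-0.43) and the NF-kB subunit NFKB1 (-0.28), named here after their values were seen, and JUN was lost without replicate 1 of 20% O2 + Doxy (-0.29) or replicate 3 of 20% O2 wo Doxy (-0.41). DDIT3 read 7.96 ± 0.265 CPM with Doxy and 44.8 ± 0.813 CPM without (SD, n = 3), though 39.6% of its exon bases overlap other genes. RELB, an NF-kB subunit (0.74), and CEBPB, a factor of acute inflammation (0.74), passed by less, with edgeR adjusted p-values of 0.0336 and 0.0497. RELB was lost without replicate 2 or 3 of 20% O2 + Doxy or any replicate of 20% O2 wo Doxy (edgeR adjusted p at most 0.112), and CEBPB without these or replicates 1 or 2 of 3% O2 + Doxy or replicate 3 of 3% O2 wo Doxy (at most 0.162). Also higher were NFKBIA (0.34), NFKB2 (0.55), NFKBIZ (0.23) and FOSL2 (0.29), named here after their values were seen. NFKBIA (edgeR adjusted p = 0.00939) kept its call in all 19 alternatives, and at 3% O2 it gave 0.30 (edgeR adjusted p = 0.0590). NFKB2, NFKBIZ and FOSL2 were each lost in at least 4 fits that left out 1 library. These included the fits without replicate 2 of 20% O2 + Doxy or replicate 2 or 3 of 20% O2 wo Doxy.

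The genes called at 3% O2 were DDIT3 (0.85), FOSB (0.80), ATF3 (0.65) and TNFAIP3 (0.53), all with smaller values than at 20% O2. The interaction term was called for these same 4, at -1.64, -0.70, -1.65 and -0.92, where 4.08% of all genes were lower. ATF3 at 3% O2 was lost in 12 of 19 alternatives, and among the fits that left out 1 library it held only without replicate 1 or 3 of 20% O2 + Doxy or replicate 3 of 3% O2 wo Doxy (0.57 to 0.69 in the 9 others). TNFAIP3 was lost at 3% O2 without replicate 1 or 2 of 3% O2 + Doxy or replicate 2 or 3 of 3% O2 wo Doxy (0.46 to 0.50). Without Doxy, 7 regulators were lower and 1 higher at 3% than at 20% O2, led by ATF3 (-1.93), DDIT3 (-1.67), FOSB (-0.84), TNFAIP3 (-0.58) and REL (-0.57), with JUN higher (0.55). The shares over all genes were 11.9% lower and 13.9% higher. REL was lost with the replicate block (edgeR adjusted p = 0.0622) and without any replicate of 20% O2 wo Doxy or replicate 1 or 2 of 3% O2 wo Doxy (-0.65 to -0.47), and JUN without replicate 3 of 20% O2 wo Doxy or replicate 2 of 3% O2 wo Doxy (0.46 to 0.50). With 1 library left out, 4 to 9 regulators were lower and 0 to 1 higher, with 4 lower without replicate 3 of 20% O2 wo Doxy or replicate 2 of 3% O2 wo Doxy. With Doxy, 0 of 26 passed edgeR's test between the oxygen levels, with 2 at an unadjusted p under 0.05 (TNFAIP3 and CHUK) and 0 by DESeq2's Wald test. In that comparison 1.63% of all genes were higher and 0.385% lower.

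**Figure D4:**
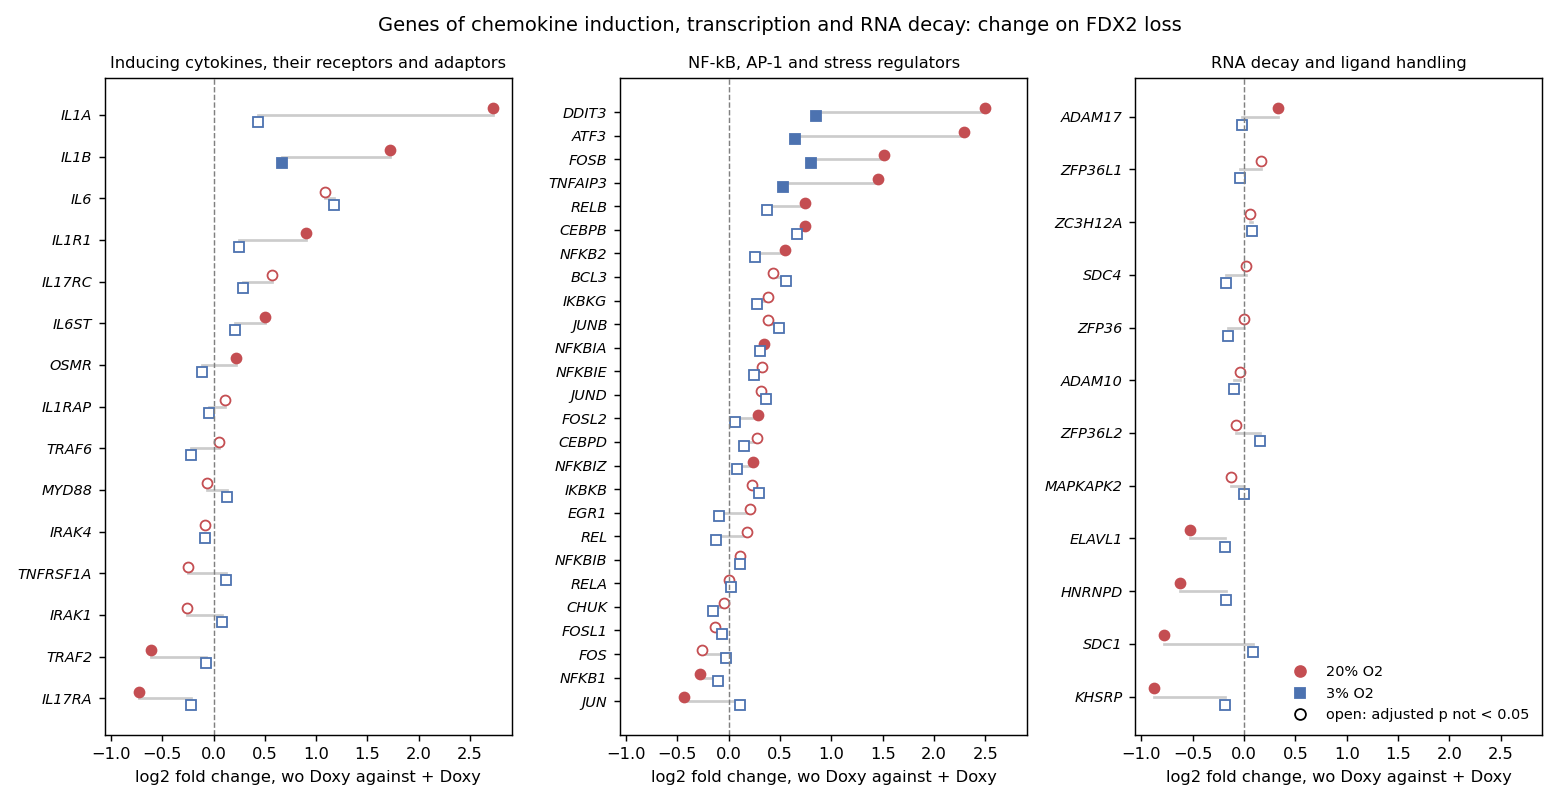
Log2 fold changes on FDX2 loss at 20% O2 (circles) and 3% O2 (squares) for the tested genes of 3 lists, filled where edgeR's adjusted p is under 0.05. IL1A (2.73), DDIT3 (2.49) and ATF3 (2.29) lie farthest right at 20% O2, and their 3% O2 values lie at 0.43, 0.85 and 0.65.

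Proteins that bind AU-rich mRNA or handle the secreted ligand gave 1 higher and 4 lower of 12 tested on FDX2 loss at 20% O2. Over all genes 17.6% were higher and 17.7% lower there. At 3% O2 edgeR called 0 of 12, against 4.2% higher and 3.11% lower over all genes. Of the 12, 3 had an unadjusted p under 0.05 at 3% O2 and DESeq2's Wald test called 2 (ELAVL1 and SDC4). At 20% O2 KHSRP (-0.88) and HNRNPD (-0.62), which are known to speed decay of AU-rich mRNA, and ELAVL1 (-0.53), which is known to stabilise it, were lower. So was SDC1 (-0.78), a proteoglycan that holds chemokines at the cell surface. ADAM17, a protease that releases CX3CL1 and other membrane-bound ligands, was higher (0.33). Without Doxy, KHSRP (0.76), SDC1 (0.49), HNRNPD and ELAVL1 (both 0.37) were higher and ADAM17 (-0.35) lower at 3% than at 20% O2. SDC1 was lost there without replicate 3 of 20% O2 wo Doxy (0.44) or replicate 2 of 3% O2 wo Doxy (0.39). The interaction term was called for SDC1 (0.87) and HNRNPD (0.45), and both calls were lost with the replicate block (edgeR adjusted p = 0.0530 and 0.0589). The HNRNPD term was also lost without replicate 2 of 20% O2 + Doxy, any replicate of 20% O2 wo Doxy, replicate 2 of 3% O2 + Doxy or replicate 3 of 3% O2 wo Doxy (0.43 to 0.47). With Doxy, 1 of 12 was higher at 3% O2, the proteoglycan gene SDC4 (0.28, edgeR adjusted p = 0.0255), which was lost in 9 of 19 alternatives, including the fits without any replicate of 20% O2 wo Doxy, without replicate 1 or 2 of 20% O2 + Doxy or without replicate 2 or 3 of 3% O2 + Doxy (0.25 to 0.28). In that comparison 1.63% of all genes were higher. KHSRP varied widely among replicates, with 577 ± 122 CPM in 20% O2 + Doxy (SD, n = 3).

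The pattern of CXCL8 over the 12 libraries was compared, by Pearson's r of log2 CPM, with those of the 13662 genes that averaged 1 CPM or more. The 5 genes most like it outside the family were TUBE1 (epsilon-tubulin, r = 0.992), SLC6A15 (a neutral amino acid transporter, 0.991), DHRS7 (a dehydrogenase, 0.989), SKIL (a corepressor of SMAD signalling, 0.984) and CCNB1IP1 (a ubiquitin ligase, 0.982). The points share libraries and conditions, so these values describe a pattern over 4 conditions. Their log2 fold changes on FDX2 loss were 0.54 to 0.90 at 20% O2 and -0.01 to 0.14 at 3% O2, which describe the pattern they were chosen for. TUBE1 read 16.1 ± 0.893, 29.9 ± 0.170, 14.6 ± 1.48 and 14.9 ± 0.237 CPM (SD, n = 3) in the 4 conditions in the order used above. Among the chemokines, CXCL2 (r = 0.856) and CXCL1 (0.735) were nearer to CXCL8 than CXCL3 (0.283), CCL20 (0.223), CCL28 (0.120) and CXCL5 (-0.418). Even so, CXCL2 ranked 784 and CXCL1 ranked 1769 among the 13662 genes, so many genes outside the family were nearer.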

How the data were processed

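RNA was measured in 12 poly(A) libraries of FDX2-iKO ES2 cells. Per the labels and methods, the authors used STAR (GRCh38) for alignment and featureCounts for counting, and the deposited values are raw counts per gene and library, neither normalized nor pooled. Versions, annotation and strand setting are not given in the sources used here, so counts of overlapping genes are uncertain. All 58735 identifiers match GENCODE release 29, which gave positions and exon lengths. Groups follow the sample titles. The members and gene lists were chosen with earlier results of these data known.

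From the counts, edgeR 4.0.16 (R 4.3.3) kept 16891 of 32966 genes with a count (filterByExpr, minimum count 10, minimum total count 15), scaled libraries by TMM and fitted 4 condition means by quasi-likelihood to all 12 libraries (8 residual degrees of freedom, common biological coefficient of variation 16.3%). Genes were called at a Benjamini-Hochberg adjusted p under 0.05 over all tested genes. A member was too low to read where it failed this filter or had at most 3 counts everywhere. CPM uses the scaled totals, and TPM divides counts by exon length. Named were all members, FDX2, tested ligands and receptors, up to 6 called genes with the largest fold change per list and comparison (others as counts), and the 5 genes most like CXCL8.

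The labels name biological replicates without stating separate cultures, so p-values measure the spread between these samples. Replicates varied more than sampling of reads gives (median chi-square per degree of freedom 1.30 to 3.90). Only between 20% and 3% O2 without Doxy did deviations from the condition means correlate positively in all 3 same-numbered pairs, at 0.190 to 0.497. Differently numbered pairs of these conditions correlated at -0.473 to 0.231. The ranges overlap, so pairing by number was not established. This pattern comes from the data, not the labels. Alternatives were DESeq2 1.42.0 (size factors, Wald test), other filters, a replicate block, only the compared conditions, a minimum fold of 2, leaving out each library, and, chosen after seeing the data, a correction for GC content and blocked fits to 6 libraries. The fitting steps were tested on simulated counts. Total counts of 24958386 to 34313637 set the precision.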

Additional observations from a re-analysis of the deposited data

Results flagged for a closer look

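The response of CXCL8 to FDX2 loss differed between 3% and 20% O2 by a test of the difference itself, with an interaction term of -1.15 on the log2 scale (standard error 0.133, edgeR adjusted p = 0.000927). CXCL8 was higher without Doxy at 20% O2 in 3 of 3 replicates than in any replicate with Doxy, and at 3% O2 the conditions overlapped. Among the other named genes the same test passed for IL1A (-2.30), IL1B (-1.05), OSMR (-0.33, lost in 6 of 18 alternatives), TNFAIP3 (-0.92), FOSB (-0.70), ATF3 (-1.65) and DDIT3 (-1.64), whose responses were lower at 3% O2, and for HNRNPD (0.45, lost in 8 of 18 alternatives) and SDC1 (0.87, lost with the replicate block), whose responses were higher. No other tested chemokine met a rule for a closer look, and groups of 3 replicates were not screened for outlying samples.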

How the results depend on the processing

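The members called numbered 4 for FDX2 loss at 20% O2, 0 at 3% O2, 0 for 3% against 20% O2 with Doxy, 3 without Doxy and 1 for the difference of responses. With a minimum fold of 2, 1 member, CXCL8, was left in the first, where CXCL1 and CCL28 lost their calls, and 1 in the comparison of oxygen without Doxy. For oxygen with Doxy, DESeq2's Wald test called 2, the correction for GC content 3, and fits that left out 1 library 0 to 1. For the difference of responses the correction for GC content called 2. No called member reversed. Over all genes, the correction for GC content called 1265 in place of 341 for oxygen with Doxy, 3251 in place of 1235 for FDX2 loss at 3% O2 and 3095 in place of 1231 for the difference of responses, and DESeq2's Wald test called 629, 1944 and 1916. With the replicate block in the fit to 12 libraries, 3, 0, 0, 2 and 1 members were called in the 5 comparisons, and in the fit to the 6 libraries compared without Doxy 3 (4 with the correction for GC content). The block changed the member calls of CXCL5 for FDX2 loss at 20% O2 (edgeR adjusted p = 0.0830) and of CXCL3 for oxygen without Doxy, and no other. Pairing by number was not established for oxygen without Doxy, and between the other conditions same-numbered pairs correlated at -0.568 to 0.648. The causes of these changes were not tested. Depth limits CCL20, with 40 to 83 counts per library, and the 3 members too low to read, of which CXCL6 had an edgeR adjusted p of 0.420 to 1 without the filter.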
